A study of Mus musculus with 6 samples.

Results

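CC chemokine ligands are small secreted proteins, named for a pair of adjacent cysteines, that draw leukocytes along a concentration gradient. They bind G protein-coupled receptors of the CCR family. In fat of obese animals, ligands of CCR2 such as CCL2 are known for recruiting blood monocytes that become macrophages, CCL11 is known for attracting eosinophils through CCR3, and macrophages are themselves a main source of several CC ligands. Here 10 genes of this family, chosen by symbol (Ccl2, Ccl3, Ccl4, Ccl5, Ccl6, Ccl7, Ccl8, Ccl9, Ccl11 and Ccl22), were followed in RNA sequencing counts of epididymal white adipose tissue, a visceral fat depot of the mouse. They are 10 of the 54532 gene identifiers in the count table, and were chosen with earlier results of these data known.

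The knockout group (3 libraries) came from mice with the floxed PD-1 gene and Lyz2-Cre (PD-1fl/fl Lyz2-Cre). The control group (3 libraries) came from PD-1fl/fl littermates, so that the floxed allele was common to both groups and Cre to the knockouts alone. All mice had been given a high-fat diet over 16 weeks, and there was no group on normal chow. Lyz2-Cre is active mainly in macrophages, monocytes and neutrophils, and T cells, which also express PD-1, are not its target. The sources used here give no strain background, age or sex. Replicate numbers follow the order in which the samples are recorded. Whether every library is a separate animal is not stated, and p-values measure only the spread between these libraries.

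Pdcd1, the PD-1 gene, was scarce in whole fat: knockout replicates 1 to 3 held 19, 19 and 5 counts and control replicates 1 to 3 held 13, 0 and 0, so its total does not check the labels, and other cells of the tissue can contribute to it. Libraries held 20108185 to 27225533 counts. Control replicate 2 (HF_7690_eWAT) went against its tissue label. Its 8 hepatocyte genes averaged 13.43 log2(CPM + 1), where CPM is the count scaled to a common library size with TMM factors, against 1.27 to 8.89 in the other 5 libraries. The highest of these 5 was control replicate 3, which also held liver transcripts (Alb, the albumin gene, at 3879 CPM, against 4.02 to 654 CPM in the other 4). The 8 adipocyte genes of control replicate 2 averaged 5.57, against 10.30 to 11.86 in the other 5 libraries. Its 4 genes of Kupffer cells, the macrophages of liver, averaged 5.59, against 0.94 to 2.64. Control replicate 1 stood apart in neutrophil genes, whose 5-gene mean was 4.59, against 1.16 to 2.10 elsewhere, with 46 counts of the defining marker Ly6g and 0 in each other library. Results are therefore given with all 6 libraries and without control replicate 2.

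The ligand genes lie in clusters. In mm10, with GENCODE vM21 gene models, Ccl2, Ccl7, Ccl11 and Ccl8 lie in this order on the plus strand of chromosome 11 between 82035571 and 82116799. Ccl5, Ccl9, Ccl6 and Ccl3, on the minus strand, and Ccl4, on the plus strand, lie on the same chromosome between 83525778 and 83664683. Ccl22 lies on chromosome 8, from 94745590 to 94751699. All 10 are protein-coding. Ccl2 and Ccl6 overlap genes on the opposite strand, Gm17268 and E230016K23Rik, but share 0 exonic bases with them, and these had 0 counts and 0 to 37 counts per library. Runs of 50 bases in the annotated transcripts were unique to the gene for 9 members, and for Ccl9 1.97% of them also occurred in transcripts of other genes.

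RefSeq promoter windows on GRCm38.p6, the assembly of mm10, were matched for 5 of the 10 members (Ccl3, Ccl6, Ccl8, Ccl9 and Ccl22). The 250 bases before the start are shown for the 2 most abundant ligands, Ccl9 and Ccl6, for Ccl3, which varied 11.9 times among the knockout libraries, and for Ccl8, which varied 1.54 times among them. Capitals mark matches, on either strand, to an NF-kB site, a PU.1 core (GAGGAA), a C/EBP site (TTGCNNAA) or a TATA box (TATAAA). PU.1 and C/EBP are transcription factors of myeloid cells, and NF-kB is induced by inflammatory signals.
Ccl9 (chr11:83578637-83578886, minus strand): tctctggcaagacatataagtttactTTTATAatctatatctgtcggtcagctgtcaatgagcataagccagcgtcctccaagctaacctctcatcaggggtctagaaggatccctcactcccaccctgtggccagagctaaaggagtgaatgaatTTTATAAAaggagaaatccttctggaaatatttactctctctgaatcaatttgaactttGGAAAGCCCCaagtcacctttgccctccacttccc
Ccl6 (chr11:83593088-83593337, minus strand): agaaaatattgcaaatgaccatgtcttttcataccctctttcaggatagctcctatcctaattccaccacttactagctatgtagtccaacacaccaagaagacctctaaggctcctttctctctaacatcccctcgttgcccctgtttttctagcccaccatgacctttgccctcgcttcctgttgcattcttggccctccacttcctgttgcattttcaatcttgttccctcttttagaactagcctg
Ccl3 (chr11:83649379-83649628, minus strand): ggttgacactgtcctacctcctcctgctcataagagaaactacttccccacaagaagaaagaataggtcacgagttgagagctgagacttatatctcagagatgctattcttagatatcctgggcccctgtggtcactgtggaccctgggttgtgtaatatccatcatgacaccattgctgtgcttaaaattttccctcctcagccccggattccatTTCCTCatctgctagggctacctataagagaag
Ccl8 (chr11:82114935-82115184, plus strand): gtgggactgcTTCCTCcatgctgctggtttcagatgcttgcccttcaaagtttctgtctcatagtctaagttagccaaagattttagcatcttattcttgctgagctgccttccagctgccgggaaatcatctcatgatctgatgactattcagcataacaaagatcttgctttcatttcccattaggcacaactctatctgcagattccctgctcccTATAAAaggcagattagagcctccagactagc

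An NF-kB match was found in the Ccl9 window alone, 35 to 26 bases before the start. Such a match occurred in 7.25% of all 32851 promoter windows of this length. PU.1 cores were found in Ccl3, 33 to 28 bases before the start, and in Ccl8, 240 to 235 bases before it (23.3% of all windows). A TATA box stood 32 to 27 bases before the Ccl8 start. Ccl9 had 3 TATA matches, of which those 94 to 89 and 92 to 87 bases before the start overlap (12.4% of all windows hold one). No C/EBP match occurred in these 5 windows (9.56% of all windows), and the Ccl6 and Ccl22 windows held none of the 4 motifs. These are matches of letters only.

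Within a library the ligands differed greatly in level. Levels of different genes are compared here on the deposited FPKM, which divides by transcript length. Ccl6 was the highest of the 10 in 5 libraries, and Ccl9 in control replicate 2. Both encode rodent chemokines made by macrophages and other myeloid cells, and bind CCR1. Together they made up 69.7%, 77.2% and 58.4% of the summed FPKM of the 10 ligands in knockout replicates 1 to 3. In control replicates 1 to 3 they made up 76.0%, 69.0% and 49.4%. These shares overlapped between the groups, and control replicate 3 had the lowest.

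Ccl8 took 4.57% to 21.2% of the sum and stood second in control replicate 3. Ccl11 took 0.392% to 22.9% and stood second in knockout replicate 3. Ccl7 took 1.82% to 8.502%, Ccl2 1.21% to 5.11% and Ccl5 0.889% to 14.6%, this highest share being that of control replicate 2. The highest shares of Ccl3, Ccl4 and Ccl22, all in control replicate 2, were 2.495%, 1.29% and 1.55%. The neighbours Ccl2 and Ccl7 changed places between libraries. Ccl2 stood at 20.3, 11.2 and 6.40 FPKM in knockout replicates 1 to 3, where Ccl7 stood at 22.9, 9.24 and 6.90 FPKM. In control replicate 2 the order was another: Ccl5 stood second and Ccl11 last.

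**Figure D1:**
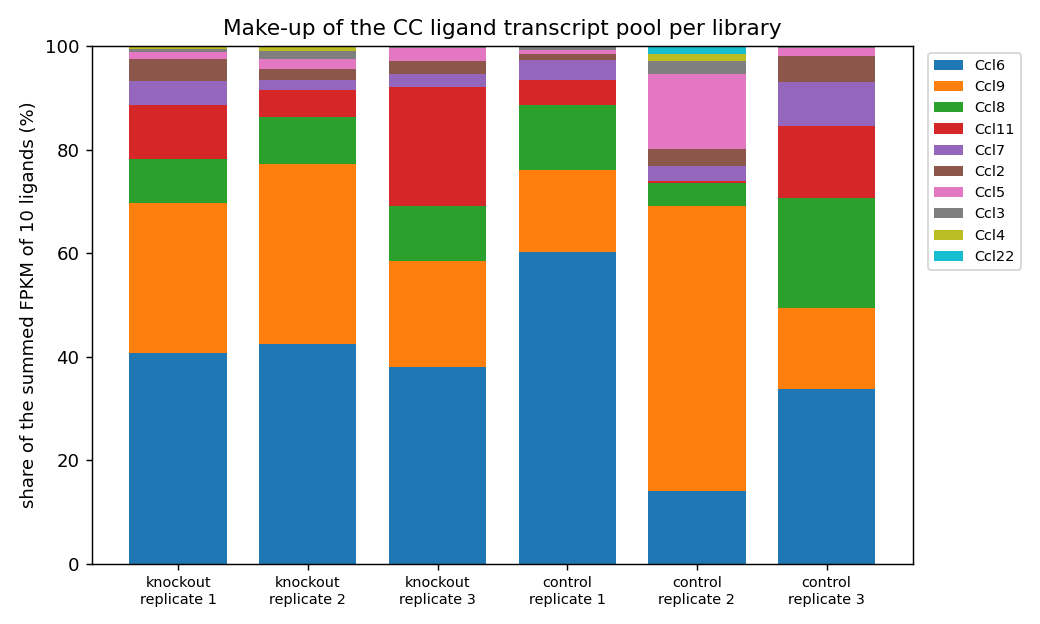
Share of the summed FPKM of 10 CC ligand genes (y axis, %) taken by each gene (colours) in each of the 6 libraries (x axis). Ccl6 and Ccl9 fill between 49.4% and 77.2% of each bar, and Ccl11 takes 0.392% in control replicate 2 against 22.9% in knockout replicate 3.

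The comparison of myeloid PD-1 knockouts with littermate controls asked which transcripts differed with the deletion in myeloid cells. All 10 ligands had a log2 fold change above 0, knockout over control, with all 6 libraries, where 48.0% of all 15928 genes tested did. Their median was 1.29, against −0.03 over all genes. The 10 had been chosen with earlier results of these data known, so their common sign is no test of the family. The 5 other CC ligand genes tested were all below 0 (median −0.73). All 10 had passed the filter on low counts, but Ccl4 only through its knockout libraries, so its sign was in part set by the filter. By edgeR's quasi-likelihood test 0 of the 10 passed an adjusted p of 0.05, as did 0.00% of all genes. The smallest adjusted p of any gene was 0.56. With all 6 libraries this test also made no call among genes given known changes in simulated data of the same spread, whereas DESeq2 recovered many of the large ones and called some unchanged genes, so the count of 0 does not show that the ligands were alike in the 2 groups. Ccl4 and Ccl9, 2 of the 10, had an unadjusted p under 0.05, against 8.65% of all genes. DESeq2 called 0 of the 10 (3.13% of all genes), and limma-voom called 0.

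Without control replicate 2, 8 of the 10 ligands were above 0 (47.1% of 16729 genes), with a median of 1.22 against −0.04 over all genes. By edgeR 0 passed (0.00% of all genes). In simulated data this fit called many of the largest changes, and 0 of 50 genes changed 2-fold. Members at an unadjusted p under 0.05 were 3, Ccl4, Ccl5 and Ccl11 (8.96% of all genes). DESeq2 then called 1 member, Ccl4 (2.90% of all genes). Knockout and control libraries did not overlap for 3 of the 10 ligands, again Ccl4, Ccl5 and Ccl11. In all 3 the knockouts were higher, and Ccl4 had passed the filter on low counts only through them. Each knockout stood above each control for 9.54% of all genes with all 6 libraries and for 13.4% without control replicate 2, and below each control for 5.61% with all 6. When counts were scaled by library totals alone these shares were 15.1%, 16.7% and 2.07%, and the same 3 ligands did not overlap.

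**Figure D2:**
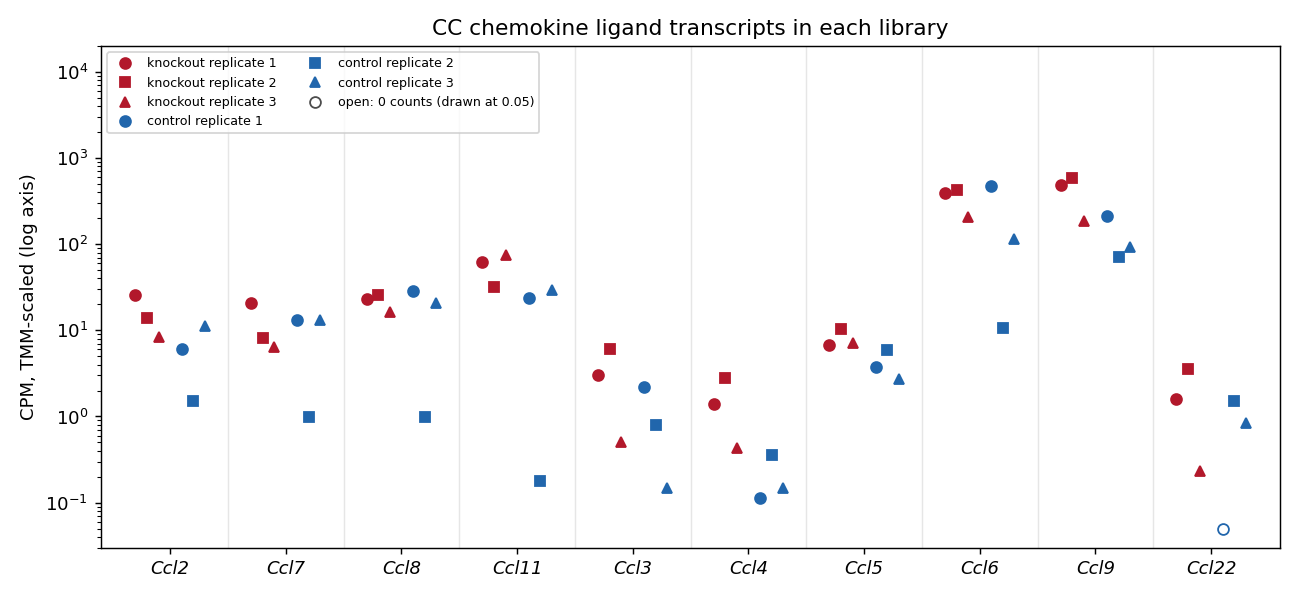
TMM-scaled CPM (log y axis) of the 10 CC ligand genes (x axis) in each knockout (red) and control (blue) library, with the symbol giving the replicate. Red symbols lie above all blue ones for Ccl11, Ccl4 and Ccl5, and control replicate 2 (blue square) is lowest for Ccl2, Ccl6, Ccl7, Ccl8, Ccl9 and Ccl11.

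**Figure D3:**
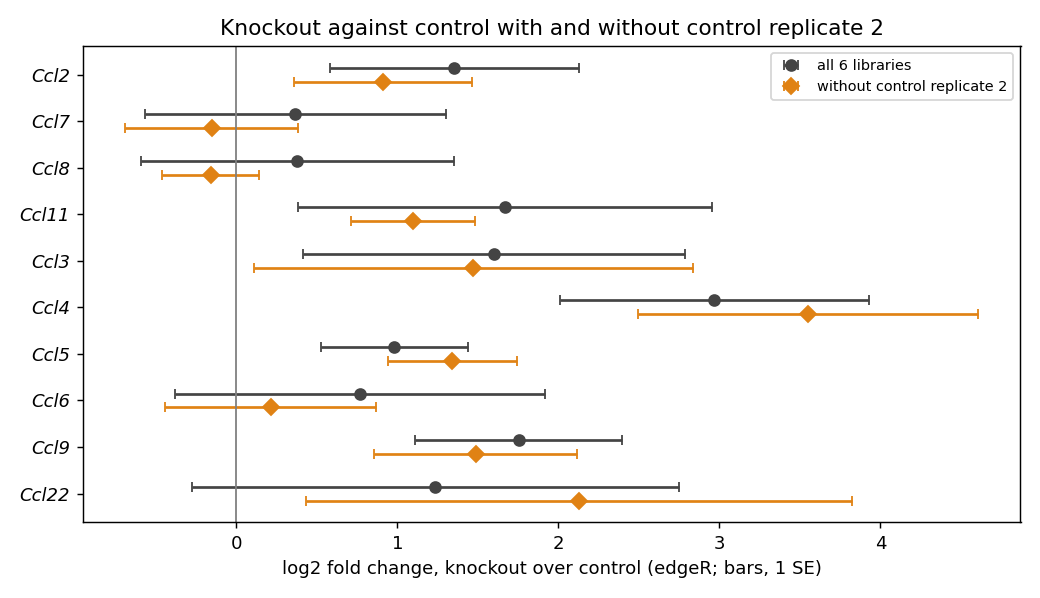
Log2 fold change of each ligand, knockout over control (x axis; points with bars of 1 SE from edgeR), with all 6 libraries (grey) and without control replicate 2 (orange). Ccl4 has the highest value in both fits (2.97 and 3.55), and Ccl7 and Ccl8 cross to −0.15 and −0.16 without control replicate 2.

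Among the monocyte attractants of the first cluster, Ccl2 encodes MCP-1, the main ligand of CCR2. It had 25.9, 13.9 and 8.34 CPM in knockout replicates 1 to 3 and 6.03, 1.52 and 11.2 CPM in control replicates 1 to 3. The groups overlapped, since control replicate 3 stood above knockout replicate 3. The means were 16.0 ± 8.99 CPM (SD, n = 3) and 6.24 ± 4.84 CPM, with a log2 fold change of 1.35 ± 0.77 (SE; edgeR adjusted p 0.626). Without control replicate 2 it was 0.91 ± 0.55 (edgeR adjusted p 0.652), and it ranged from 0.83 without knockout replicate 1 to 2.07 without control replicate 3.

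Ccl7, which encodes MCP-3, another CCR2 ligand, had 20.6, 8.07 and 6.33 CPM in knockouts and 13, 0.984 and 13.1 CPM in controls. Knockout replicates 2 and 3 stood below control replicates 1 and 3. Its log2 fold change was 0.37 ± 0.94 (SE; edgeR adjusted p 0.940). It turned to −0.15 ± 0.54 without control replicate 2 and to −0.32 without knockout replicate 1, the library with the highest Ccl7.

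Ccl8, the MCP-2 gene, had 23.4, 25.4 and 16.5 CPM in knockouts and 28.3, 0.984 and 20.8 CPM in controls. In all libraries but control replicate 2 its level thus lay within a narrow range. The log2 fold change was 0.38 ± 0.97 (SE; edgeR adjusted p 0.941) with all 6 libraries and −0.16 ± 0.30 without control replicate 2.

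Ccl11, which encodes eotaxin, had 61.4, 32.0 and 74.6 CPM in knockouts and 23.5, 0.179 and 29.0 CPM in controls. Each knockout was above each control, though knockout replicate 2 exceeded control replicate 3 by little. With 2 counts, control replicate 2 was under the detection floor of 3 counts per library. The means were 56.0 ± 21.8 CPM and 17.6 ± 15.3 CPM (SD, n = 3), and 26.3 ± 3.88 CPM (n = 2) for the controls without replicate 2. The log2 fold change was 1.67 ± 1.29 (SE; edgeR adjusted p 0.723), and 1.09 ± 0.38 without that library (edgeR adjusted p 0.540, DESeq2 adjusted p 0.185).

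Count ratios between neighbouring genes need no library scaling. These pairs were chosen after the values had been seen, and the exact Clopper-Pearson intervals at 95% cover counting error only. Of the counts of Ccl2 and Ccl7 together, Ccl2 took 55.7% (53.1% to 58.3%), 63.2% (59.3% to 67.0%) and 56.9% (51.7% to 61.9%) in knockouts. It took 31.7% (27.7% to 35.9%) in control replicate 1 and 46.1% (42.2% to 49.96%) in control replicate 3. Control replicate 2, with 28 counts of both genes, had 60.7% (40.6% to 78.5%). The share of Ccl2 was thus higher in all 3 knockouts than in control replicates 1 and 3, and that of control replicate 2 lay within the knockouts' range. The share is of counts and not per length, so it does not say which of the 2 genes was the higher.

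The second cluster also holds Ccl3 (MIP-1 alpha), Ccl4 (MIP-1 beta) and Ccl5 (RANTES), which encode attractants of monocytes and T cells. All were low in this tissue. For Ccl3 the knockout libraries held 93, 171 and 13 counts, or 3.04, 6.00 and 0.505 CPM. The control libraries held 58, 9 and 4 counts, or 2.17, 0.805 and 0.147 CPM. Knockout replicate 3 lay among the controls. Pooled over libraries, 277 counts stood against 71, a ratio of 3.00 per scaled count (exact 95% interval 2.30 to 3.94, counting error only). Ccl3 had a log2 fold change of 1.60 ± 1.19 (SE; edgeR adjusted p 0.713) and 1.47 ± 1.36 without control replicate 2. It moved from 0.76 without knockout replicate 2 to 2.82 without control replicate 1, so it rested on single libraries.

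For Ccl4 the knockout libraries held 43, 79 and 11 counts, and the control libraries 3, 4 and 4. Every knockout was above every control, and the controls were near the detection floor. Ccl4 had passed the filter on low counts only through the knockouts, so this separation was in part set by the filter. In CPM these were 1.41, 2.77 and 0.427 against 0.112, 0.358 and 0.147, so that knockout replicate 3 and control replicate 2 lay close together. The pooled ratio, 133 counts against 11, was 9.28 (exact 95% interval 5.02 to 19.0, counting error only). Ccl4 had a log2 fold change of 2.97 ± 0.96 (SE; edgeR adjusted p 0.560, DESeq2 adjusted p 0.0809). Without control replicate 2 it was 3.55 ± 1.05 (edgeR adjusted p 0.540), which DESeq2 called at an adjusted p of 0.0392. Over all alternatives its adjusted p ranged from 0.0392 to 0.9999 (DESeq2 without control replicate 2 and edgeR without knockout replicate 1). With 1 library left out in turn it stayed between 2.21 and 3.55.

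Ccl5, which T cells and NK cells as well as macrophages make, had 6.80, 10.3 and 7.22 CPM in knockouts and 3.75, 5.90 and 2.71 CPM in controls. Each knockout was above each control. It was the ligand with the most even knockout libraries, whose highest was 1.52 times the lowest. The means were 8.11 ± 1.92 and 4.12 ± 1.63 CPM (SD, n = 3), and the log2 fold change was 0.98 ± 0.46 (SE; edgeR adjusted p 0.560, DESeq2 adjusted p 0.407). Without control replicate 2 it was 1.34 ± 0.40 (edgeR adjusted p 0.540, DESeq2 adjusted p 0.0531). Of 8 T cell markers 8 had a log2 fold change above 0, and 4 did not overlap between the groups (9.54% of all genes). Their summed level was 26.7 to 32.6 CPM in knockouts and 7.33 to 11.8 CPM in controls, with Cd8a at 0 counts in control replicate 2. Trac alone held 9.89 to 15.7 CPM in knockouts and 1.35 to 2.42 CPM in controls, while Cd4 and Cd3g overlapped (0.28 and 0.50). The sum did not follow Ccl5 in every library: control replicate 2 had the highest Ccl5 of the controls and the lowest sum. NK cell markers summed to 5.19 to 5.86 CPM in knockouts and 1.95 to 3.94 CPM in controls, and Ncr1 was at 0 counts in control replicates 1 and 2. The part of these cells in the Ccl5 difference was not tested.

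Ccl6 and Ccl9 held most of the family's counts. Ccl9 had 481, 585 and 188 CPM in knockouts and 209.5, 70.5 and 91.9 CPM in controls. Knockout replicates 1 and 2 were above all controls, while knockout replicate 3 was below control replicate 1. The means were 418 ± 206 and 124 ± 74.9 CPM (SD, n = 3), with a log2 fold change of 1.75 ± 0.64 (SE; edgeR adjusted p 0.560, DESeq2 adjusted p 0.146). Without control replicate 2 it was 1.49 ± 0.63 (edgeR adjusted p 0.563, DESeq2 adjusted p 0.170), and with 1 library left out it stayed between 1.44 and 2.37.

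Ccl6 had 396, 421 and 206 CPM in knockouts and 475, 10.6 and 116 CPM in controls. Control replicate 1, the library with neutrophil transcripts, had the highest value of all 6. The log2 fold change was 0.77 ± 1.15 (SE; edgeR adjusted p 0.885), and 0.21 ± 0.66 without control replicate 2. It was 2.43 without control replicate 1 (edgeR adjusted p 0.534, and 0.534 to 0.9999 over all alternatives). Its difference thus depended on which control was kept. The 5 neutrophil markers summed to 228 CPM in control replicate 1 and to 12.2 to 41.0 CPM in the other libraries, Ly6g being at 0 counts in each of these. Their part in the Ccl6 level was not tested.

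Of the counts of Ccl6 and Ccl9 together, a further pair chosen after its values were seen, Ccl9 took 54.8% (exact 95% interval 54.2% to 55.4%), 58.2% (57.6% to 58.7%) and 47.7% (46.7% to 48.7%) in knockouts. It took 30.6% (29.9% to 31.3%) in control replicate 1, 86.9% (84.5% to 89.0%) in control replicate 2 and 44.2% (42.9% to 45.5%) in control replicate 3. The liver-like library thus had the highest share of Ccl9, and the 2 fat-like controls had lower shares than each knockout. Among the pairs computed, the knockouts stood apart from these 2 controls only here and for Ccl2 with Ccl7.

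Ccl22, which encodes a ligand of CCR4 made by dendritic cells and macrophages, was low: the knockout libraries held 49, 102 and 6 counts, and the control libraries 0, 17 and 23. In CPM these were 1.60, 3.58 and 0.233 against 0, 1.52 and 0.843. Knockout replicate 3 was below control replicates 2 and 3. Pooled, 157 counts stood against 40, a ratio of 3.01 (exact 95% interval 2.12 to 4.38, counting error only). Ccl22 had a log2 fold change of 1.24 ± 1.51 (SE; edgeR adjusted p 0.851) and 2.13 ± 1.70 without control replicate 2, and only 0.26 without knockout replicate 2. Control replicate 2 was not low in this gene: it stood at 180% of the median of the other 5 libraries, against 0.559% for Ccl11 and 2.69% for Ccl6.

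Macrophage genes moved with the ligands. Of 15 macrophage markers 15 had a log2 fold change above 0 (median 1.82), and 14 of 15 without control replicate 2 (median 1.57). Their summed level was 1348 to 5567 CPM in knockouts and 560.1 to 1232 CPM in controls, and none was at 0 counts in any library. Lyz2, the gene of the Cre line that only the knockouts carry, was the highest of the 15 in each library. It had 1945, 2334 and 376 CPM in knockouts and 299, 123 and 369 CPM in controls. The part of the Cre allele in its level was not tested. Averaged over the 15 genes as log2(CPM + 1), knockout replicates 1 to 3 stood at 7.21, 7.53 and 5.72, and control replicates 1 to 3 at 5.51, 4.27 and 5.27. In whole tissue, fewer cells of a type and less RNA per cell cannot be told apart.

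Set against this mean of the same library, Ccl9 was the steadiest ligand. It lay 1.70, 1.67 and 1.84 log2 units above the macrophage mean in knockouts and 2.21, 1.89 and 1.27 above it in controls. The group means of this difference, 1.74 and 1.79, were nearly equal, and the liver-like library lay within the range of the others. Ccl6 lay 1.43, 1.19 and 1.97 above the mean in knockouts and 3.38, −0.73 and 1.60 in controls, so its controls spread far more widely.

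Ccl7 lay at −2.77, −4.35 and −2.85 relative to the macrophage mean in knockouts and at −1.71, −3.28 and −1.46 in controls. Ccl8 lay at −2.60, −2.80 and −1.59 in knockouts and at −0.64, −3.28 and −0.83 in controls. The knockout mean minus the control mean of this measure was −1.17 for Ccl7, −0.75 for Ccl8, −0.43 for Ccl2, −0.94 for Ccl5, 0.11 for Ccl6 and 0.70 for Ccl11, with overlap between the groups for each. With control replicate 2 left out it was −1.74 for Ccl7, −1.60 for Ccl8, −0.68 for Ccl2, −0.33 for Ccl5, −0.96 for Ccl6, −0.44 for Ccl11 and 0.002 for Ccl9. Each knockout then lay below control replicates 1 and 3 for Ccl7 and Ccl8, while the groups still overlapped for the other ligands named. The macrophage mean was itself above that of every control in all 3 knockouts, so a gene with equal levels in both groups comes out lower in knockouts on this measure. These are descriptions with no test, and the part of macrophage transcripts in the differences of the ligands was not tested. Ccl3, Ccl4 and Ccl22 were too low for this measure, since the added 1 CPM sets their values.

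**Figure D4:**
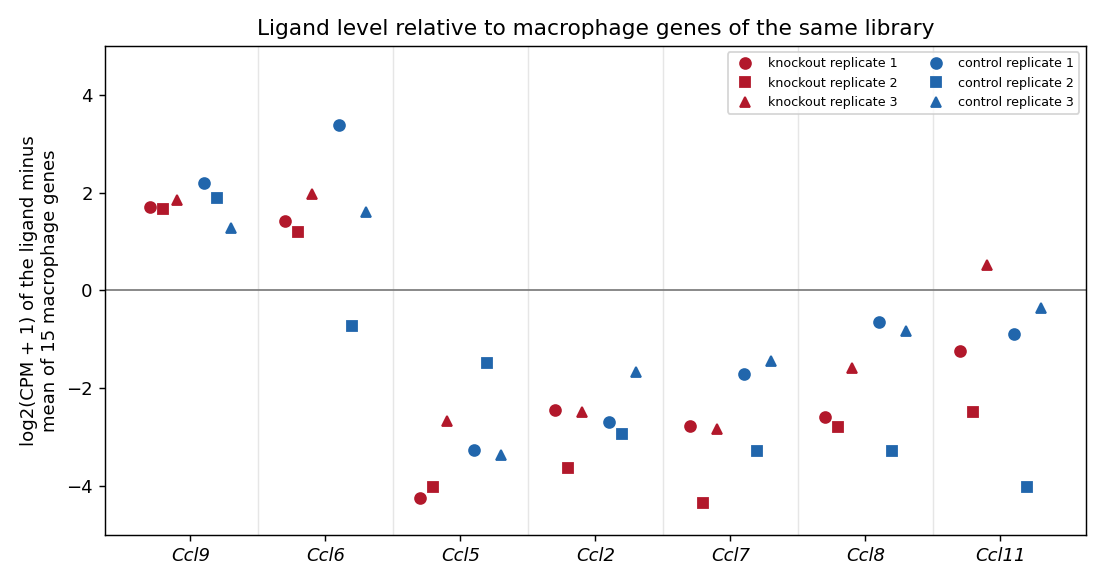
Log2(CPM + 1) of 7 ligands minus the mean of 15 macrophage genes in the same library (y axis), by gene (x axis), library group (colour) and replicate (symbol). Ccl9 stays between 1.27 and 2.21 in all 6 libraries, while Ccl6 runs from −0.73 to 3.38.

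Other markers that can accompany these ligands were also read. Of the 8 genes of lipid-associated macrophages, which gather around dying adipocytes, 8 were above 0 (median 3.70, summed level 914 to 6005 CPM in knockouts and 176 to 334 CPM in controls). Of 6 resident macrophage genes 2 were above 0 (median −0.30). Of 4 monocyte genes 2 were above 0 and 2 below (median −0.39), and of 6 dendritic cell genes 5 were above 0 (median 0.54). The 6 fibroblast genes, of a cell type known to make Ccl2, Ccl7 and Ccl11, summed to 1519 to 6802 CPM in knockouts and 492 to 1617 CPM in controls. Of the 6 mast cell and eosinophil genes 4 were tested and 4 were above 0, and all 3 eosinophil genes were low. Epx had 2 counts in control replicate 3 and 0 in each other library. Siglecf had 17, 18 and 3 counts in knockout replicates 1 to 3, against 2, 0 and 1 in control replicates 1 to 3. Prg2 had 21, 12 and 15 counts in the former, against 13, 0 and 17 in the latter. What these cells contribute to the ligands was not tested.

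The ligand profiles were also compared over the 6 libraries by the root mean square difference of centred log2(CPM + 1). Among the members, Ccl4 and Ccl5 were nearest to each other (0.36), Ccl2 and Ccl7 likewise (0.55), and Ccl3 was nearest to Ccl4 (0.52). Low genes lie close together on this scale because the added 1 CPM compresses them. Of 13072 other genes with a mean log2 CPM of at least 1, the nearest to Ccl9 were Fcer1g (0.09), Dok3 (0.14) and Kcnk13 (0.15). Nearest to Ccl8 were Acss1 (0.07), Pdp1 (0.15) and Rhoj (0.16). The nearest to Ccl2 were Hephl1 (0.23), Frmd6 (0.24) and Rrad (0.25), and to Ccl6 Fam129b (0.27), Mgp (0.36) and Mmp11 (0.39). Ccl6 thus had no gene as close as Ccl9 or Ccl8 had.

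Of 11 other CC ligand genes listed, 5 were tested and all 5 had log2 fold changes below 0 with all 6 libraries, with 0 passing the edgeR test (0.00% of all genes) and a median of −0.73. Of the 5, 1 was above 0 without control replicate 2 (median −0.79). Ccl12, which lies between Ccl11 and Ccl8 and encodes another MCP protein, had 1.503, 2.21 and 0.776 CPM in knockouts and 7.98, 0 and 2.82 CPM in controls. It had a log2 fold change of −1.27 ± 1.40 (SE), which was −1.83 ± 0.67 when control replicate 2 was left out. It thus stood lower in each knockout than in control replicates 1 and 3. Without control replicate 2 the neighbours Ccl2 and Ccl11 were above 0 (0.91 and 1.09). Ccl7 and Ccl8 were slightly below 0 there (−0.15 and −0.16). Ccl24, eotaxin-2, had 5.13, 3.79 and 7.88 CPM in knockouts and 10.4, 3.40 and 9.06 CPM in controls (−0.45 ± 0.55 SE), so that the eotaxin genes Ccl11 and Ccl24 differed in sign. Ccl17, the neighbour and co-ligand of Ccl22 at CCR4, had 65 counts in control replicate 1 and 0 to 7 in each other library. Ccl20 had 0 counts in all 6.

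Of 11 CC receptor genes 6 were tested and 6 had a log2 fold change above 0 (median 1.83). By edgeR 0 passed, and 5 had an unadjusted p under 0.05 (8.65% of all genes). Without control replicate 2, 7 were tested and 7 were above 0 (median 1.63). An unadjusted edgeR p under 0.05 was then found for 3 (8.96% of all genes). Among these receptors, Ccr3 had passed the filter on low counts only through its knockout libraries, so its sign was in part set by the filter. Ccr2, the receptor of CCL2, CCL7 and CCL12, had 57.2, 46.5 and 51.5 CPM in knockouts and 13, 9.03 and 20.8 CPM in controls (log2 fold change 1.86 ± 0.37 SE). Each knockout stood above each control, with knockouts close together, while the CCR2 ligands Ccl2 and Ccl7 overlapped between the groups. Ccr2 was called by DESeq2 at an adjusted p of 0.00949, and of 0.000647 when control replicate 2 was left out.

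Ccr1, bound by CCL3, CCL5, CCL6 and CCL9, had 11.1, 21.3 and 5.28 CPM in knockouts and 6.10, 1.61 and 3.04 CPM in controls (1.80 ± 0.71 SE). Ccr3, the eotaxin receptor, was read 123, 92 and 11 times in the knockout libraries and 9, 0 and 0 times in the control libraries, while Ccr4, the receptor of CCL22, had at most 3 counts in any library. Of the atypical receptors, which bind chemokines without G protein signalling, Ackr4 had 0.262, 1.12 and 2.33 CPM in knockouts and 7.34, 1.16 and 17.3 CPM in controls (−2.80 ± 1.16 SE). DESeq2 called Ackr4 without control replicate 2 (adjusted p 0.00713) and not with it (0.137). Ackr2, the scavenger of inflammatory CC ligands, had a log2 fold change of −0.80 ± 0.70 SE and Ackr1 0.45 ± 0.57 SE.

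**Figure D5:**
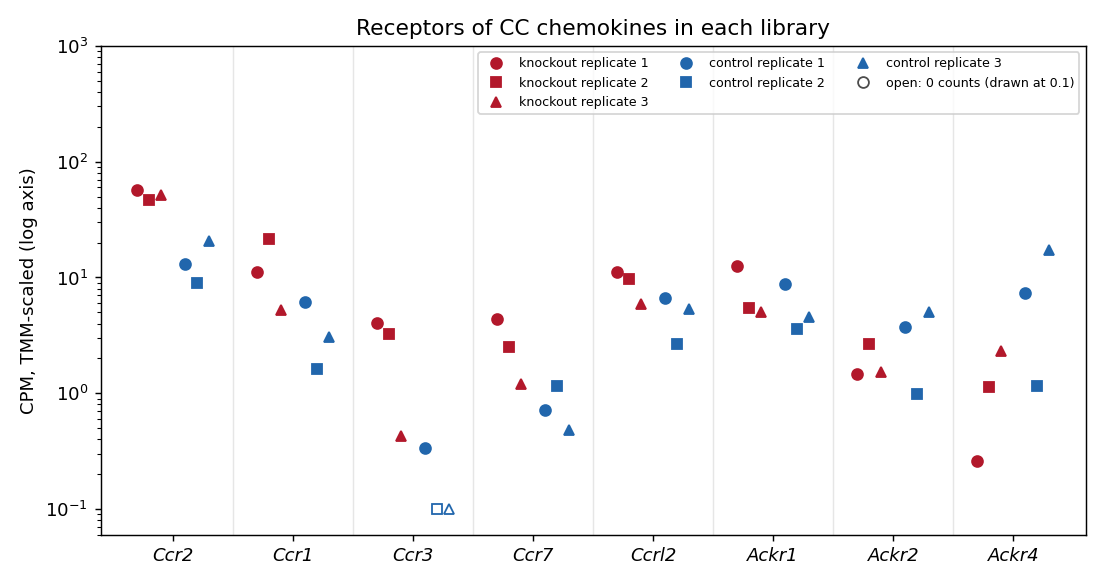
TMM-scaled CPM (log y axis) of receptor genes for CC chemokines (x axis) in each knockout (red) and control (blue) library, with the symbol giving the replicate. All red symbols for Ccr2 lie between 46.5 and 57.2 CPM, above all blue ones at 9.03 to 20.8 CPM, and Ackr4 is highest in control replicates 1 and 3.

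Of 16 genes that induce CC ligands or belong to the NF-kB pathway, 14 were tested, with 11 above 0, 3 below 0, a median of 0.50 and 0 past the edgeR test (0.00% of all genes). Nfkb2 had 41.8, 44.1 and 25.6 CPM in knockouts and 11.8, 12.3 and 22.3 CPM in controls (1.26 ± 0.39 SE). Relb and Tnfaip3 likewise did not overlap (0.79 ± 0.35 and 0.56 ± 0.45 SE). Their lowest knockouts, 16.8 and 21.4 CPM, were little above their highest controls, 15.4 and 20.1 CPM. These were 3 of 14, against 9.54% of all genes. Without control replicate 2 the log2 fold changes of Nfkb2, Relb and Tnfaip3 were 1.14 ± 0.40, 0.59 ± 0.28 and 0.22 ± 0.22 SE. Tnf, a cytokine that induces Ccl2, was read 25, 69 and 11 times in the knockout libraries and 5, 5 and 6 times in the control libraries. It had passed the filter on low counts only through its knockout libraries, so its sign was in part set by the filter. In CPM the groups overlapped for Tnf, with 0.447 in control replicate 2 and 0.427 in knockout replicate 3. Il1b, another inducer, had a log2 fold change of −1.14 ± 0.71 SE, the opposite sign to the ligands. Of 10 genes of signalling below chemokine receptors 10 were above 0 (median 1.37) and 0 passed edgeR, while DESeq2 calls with all 6 libraries included Rac2 and Dock2. Rac2, a GTPase of leukocyte migration, had 50.3, 83.6 and 17.7 CPM in knockouts and 8.54, 12.2 and 11.2 CPM in controls.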

How the data were processed

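Messenger RNA was sequenced from 6 libraries of epididymal fat. The authors deposited raw counts per gene and library, and also FPKM values, used here for levels within a library and for alternatives. Tools named in the submitters' processing notes are fastp, HISAT2 2.0.5, featureCounts 1.5.0-p3 and StringTie 1.3.3b, with build mm10. Annotation release and strand setting: not given in the sources used here, and antisense reads could not be separated.

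Symbols were matched for 54409 of 54532 identifiers. The main test was the quasi-likelihood test of edgeR 4.0.16 under R 4.3.3, robust, on the 15928 genes that filterByExpr kept (16729 without control replicate 2). TMM factors ran from 0.982 to 1.25, and control replicate 2 had 0.559. P-values were adjusted over all genes by Benjamini-Hochberg, with a threshold of 0.05. Each standard error is the log2 fold change divided by the square root of F. Fewer than 3 counts in a library counted as under the floor. Chi-square per degree of freedom between libraries of a group was 62.4 to 1230, so each was kept as 1 sample in the fits. These values do not show whether the libraries are separate animals. An exact permutation test of 3 against 3 cannot go below 0.1 and was not run. The fits were tested on simulated data.

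The 10 members and the 23 lists of 164 genes were chosen with earlier results of these data known. Named are the members, the receptors Ccr1, Ccr2, Ccr3 and Ccr4, pathway genes with no overlap between groups, and the 3 genes nearest in profile to a member among those with a mean log2 CPM of at least 1. Ccl12, Ccl17, Ccl20, Ccl24, Ackr1, Ackr2, Ackr4, Tnf and Il1b were picked after their values were seen. Some genes of the pathway lists are not reported here. Alternatives were DESeq2 1.42.0, limma-voom (limma 3.58.1), other scalings and filters, FPKM with pseudocounts of 1 and 0.1, an adjusted p of 0.1, and libraries left out.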

Additional observations from a re-analysis of the deposited data

How the results depend on the processing

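Of 169 values of the 10 ligands under 17 alternatives, 8 changed direction and 1 came to pass the threshold. Since edgeR with all 6 libraries made no call in simulated data either, staying short of the threshold shows no stability. The 8 were Ccl7 at −0.15 and Ccl8 at −0.16 without control replicate 2, by edgeR and again by DESeq2, Ccl7 at −0.32 without knockout replicate 1, and Ccl6 at −0.46, Ccl7 at −0.14 and Ccl8 at −0.36 with controls 2 and 3, which have the highest hepatocyte means, both left out, a fit that assumes the lone control to vary like the knockouts. With 1 library left out in turn, Ccl7 thus ranged from −0.32 to 0.73 and Ccl8 from −0.16 to 0.99. The cause was not tested. The 1 was Ccl4, which DESeq2 called without control replicate 2. The edgeR count of 0 genes was 530 by DESeq2 and 485 by DESeq2 without control replicate 2, and the count of 0 ligands was 1 in the latter. It stayed 0 in the other settings, at an adjusted p of 0.1 and with any 1 library left out. Scaling by library totals alone moved the median of all genes from −0.03 to 0.34 and that of the ligands from 1.29 to 1.68, so that the gap between them changed little. The filter of 10 counts in every library of 1 group removed Ccl22. No paired analysis was possible because the labels give no pairing or batch. Depth limits Ccl3, Ccl4 and Ccl22, whose lowest libraries had 4, 3 and 0 counts.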
